A study of Mus musculus with 6 samples.

Results

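Cdkn1a and Cdkn2b encode cyclin-dependent kinase (CDK) inhibitors, and both were followed through young and aged mouse brain samples. They were taken by gene symbol from the deposited table of cellular senescence genes and are 2 of its 88 genes. Messenger RNA was sequenced from 6 mouse samples, 3 labelled young brain and 3 labelled aged brain, all with brain as the tissue and neuroblast, an immature migrating neuron, as the cell type. No age, strain, sex or pooling of animals is stated in the labels. For every sample, young and aged, the labels describe tamoxifen injection of mice in which tdTomato-marked NK cells were measured, without naming the driver of the marker or tying the injected mice to the sequenced RNA. RNA was extracted from ground tissue. None of 8 neuroblast markers is among the 88 genes, so the cell type label could not be checked.

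CDK inhibitors stop dividing cells before DNA replication. The protein of Cdkn1a, p21, binds cyclin-CDK complexes and is a classic target of the tumour suppressor p53, whereas the protein of Cdkn2b, p15, binds CDK4 and CDK6 and keeps D-type cyclins from activating them, with TGF-beta as its best known inducer. In both cases the retinoblastoma family stays bound to E2F factors and S-phase genes stay silent, which is why both genes are widely used as markers of senescence, the lasting arrest of division. In the adult brain most neurons no longer divide, while neural progenitors and glia can.

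The annotated start sites of these genes are shown with the matches to a few sequence motifs. A p53 site was among the motifs searched for, but no TGF-beta response element was. RefSeq (GRCm38.p6) lists 2 start sites for Cdkn1a and 1 for Cdkn2b. Each line runs 5′ to 3′ on the gene's strand, from 250 bases before the start site to its first 10 bases. Capitals mark matches, on either strand, to TATAA, to GGGCGG (the Sp1-type GC box) or to a pair of adjacent p53 half-sites.
Cdkn1a upstream start, chr17:29090729-29090988, plus strand: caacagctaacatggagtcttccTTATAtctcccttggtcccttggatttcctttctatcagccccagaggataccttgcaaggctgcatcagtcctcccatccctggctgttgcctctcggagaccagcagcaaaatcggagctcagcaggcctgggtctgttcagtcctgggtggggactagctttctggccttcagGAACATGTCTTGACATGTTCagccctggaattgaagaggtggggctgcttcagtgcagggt
Cdkn1a downstream start, chr17:29093519-29093778, plus strand: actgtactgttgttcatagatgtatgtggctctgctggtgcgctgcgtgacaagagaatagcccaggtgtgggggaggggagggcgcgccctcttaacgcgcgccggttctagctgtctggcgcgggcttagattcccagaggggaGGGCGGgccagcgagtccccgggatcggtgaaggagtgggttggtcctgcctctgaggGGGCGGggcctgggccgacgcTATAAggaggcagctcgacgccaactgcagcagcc
Cdkn2b start, chr4:89311023-89311282, minus strand: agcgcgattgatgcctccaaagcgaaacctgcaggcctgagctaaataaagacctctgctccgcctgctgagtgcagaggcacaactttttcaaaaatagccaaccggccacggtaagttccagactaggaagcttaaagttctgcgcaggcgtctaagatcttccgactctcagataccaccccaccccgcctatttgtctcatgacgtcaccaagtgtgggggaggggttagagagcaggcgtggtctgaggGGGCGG

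The upstream Cdkn1a window holds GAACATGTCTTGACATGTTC from 51 to 32 bases before the start site. This was a match to 2 adjacent p53 half-sites with both cores intact and at most 1 mismatch over 20 bases, a rule set after the sequence was seen. Of 32851 RefSeq windows of 300 bases, 18 (0.0548%) held such a pair, and Cdkn1a was the only one of the 62 senescence table genes with a window to do so. GGGCGG was found 2 times before the downstream Cdkn1a start and 1 time at the Cdkn2b start, at bases 5 to 10 after it, where 35.7% of all windows hold it. TATAA stood 25 to 21 bases before the downstream Cdkn1a start and was not found at Cdkn2b, against 24.9% of all windows. Neither CCAAT nor CACGTG was found in the 3 windows, against 37.4% and 7.15% of all windows. The expression values do not say which Cdkn1a start was used.

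The values are the authors' expression signal, for which no label or header names a unit or scaling. Over the 66 genes with a mean of at least 1, aged replicate 1 stood apart, with correlations across genes of 0.723 to 0.844 with the other 5 libraries, against 0.930 to 0.992 among those 5 (Pearson's r on log2 values, a description over genes that are not independent). Each of the 88 genes has a higher aged than young mean, so the table may have been picked on the contrast examined here, in a way no source states, and the direction of a mean difference is not taken as evidence. Depth is unknown. No label ties the samples to separate animals, so a p-value here reflects the spread among 6 libraries that may be technical.

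Cdkn1a (Entrez gene 12575) was far higher in 2 aged samples and lowest of all in the third. Its signal in replicates 1 to 3 was 30.8, 27.0 and 21.9 for the young samples and 17.96, 94.6 and 88.0 for the aged ones. Aged replicates 2 and 3 lay above every young sample and aged replicate 1 below every one, so the groups overlapped. The mean was 26.5 ± 4.46 in the young and 66.9 ± 42.5 in the aged samples (SD, n = 3 each), a ratio of 2.52. Aged replicates 2 and 3 averaged 3.44 times the young mean and differed from each other by a ratio of 1.07, less than the ratio of 1.41 between the highest and lowest young samples. Aged replicate 1 was at 0.677 of the young mean, and aged replicate 2 was 5.27 times as high as it.

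Cdkn2b (Entrez gene 12579) had the same order of groups at a signal close to the filter. In the same order of replicates it stood at 1.37, 1.16 and 0.61 in young brain and at 0.29, 3.63 and 2.04 in aged brain. Here too aged replicates 2 and 3 were above, and aged replicate 1 below, all young samples. The means were 1.05 ± 0.392 and 1.99 ± 1.67 (SD, n = 3 each), a ratio of 1.90. Aged replicates 2 and 3 averaged 2.71 times the young mean, but were 1.78-fold apart from each other, and the highest young sample was 2.25 times the lowest. The young coefficient of variation was 37.5% for Cdkn2b and 16.8% for Cdkn1a. By mean signal Cdkn2b was 64th and Cdkn1a 13th from the top of the 66 tested genes, and with depth unknown the counting error of a signal of 0.29 cannot be given.

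**Figure D1:**
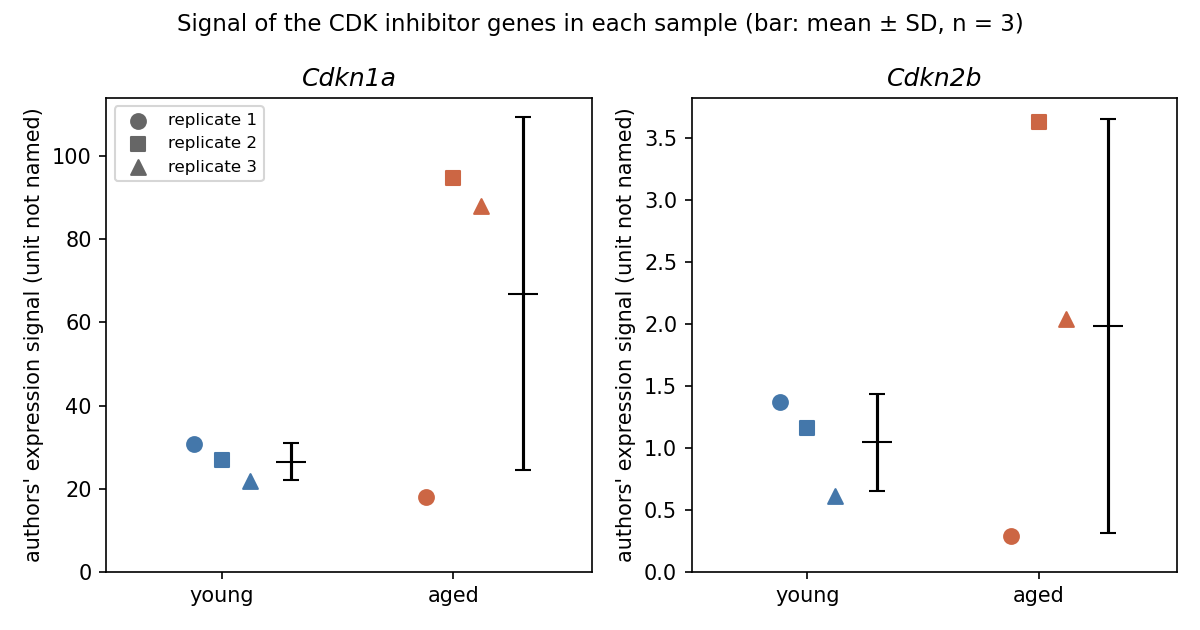
Signal of Cdkn1a (left) and Cdkn2b (right) in the authors' unnamed unit, in young and aged samples; points are samples, shaped by replicate number, and the black bars are the mean ± SD of 3 samples. In both panels aged replicate 1 is the lowest point and aged replicates 2 and 3 the highest 2.

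The comparison of aged with young samples did not pass for either gene. Differences were fitted with limma on log2(signal + 1) over the 66 genes, with Benjamini-Hochberg adjustment and a 5% false discovery rate, and the scale understates the change of low genes such as Cdkn2b. The log2 change of Cdkn1a was 1.00 (95% interval −0.45 to 2.44, SE 0.613, limma adjusted p = 0.994), higher in 2 of 3 aged samples. Cdkn2b differed by 0.38 (SE 0.465, 95% interval −0.71 to 1.47, limma adjusted p = 0.994), also higher in 2 of 3. Of all 66 genes, limma called 0 higher (0%) and 0 lower (0%), with 3 (4.55%) at an unadjusted p under 0.05, neither of these genes among them. An exact two-sided permutation test over the samples gave p = 0.4 for Cdkn1a and 0.5 for Cdkn2b, where 3 against 3 samples cannot go below 0.1. The interval of either gene runs from a lower level to a higher level in the aged samples.

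Without aged replicate 1, both genes were called. Cdkn1a then rose by 1.76 (SE 0.158, 95% interval 1.39 to 2.13, limma adjusted p = 0.000511; over its alternatives this p ranged from 0.000175 to 0.999), in 2 of 2 aged samples. It ranked 1st of the 66 genes by this difference, but 5th with all 6 libraries. The library left out was the lowest of all samples for both inhibitors. Cdkn2b rose by 0.89 (SE 0.259, 95% interval 0.29 to 1.50, limma adjusted p = 0.0473, with this p ranging from 0.0242 to 0.999 over its alternatives). Cdkn2b ranked 7th, but 12th with all 6 libraries. This fit called 14 of 66 genes higher (21.2%) and 1 lower (1.52%). With aged replicate 1 below the young mean, a higher mean of all 3 aged samples requires the average of aged replicates 2 and 3 to lie above it. All 88 genes have such a higher mean, so the direction of both calls is not independent evidence.

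The call of Cdkn2b was the less stable of the pair. With aged replicate 1 left out, equal library medians put Cdkn1a at 1.52 on the log2 scale (SE 0.151, limma adjusted p = 0.000645) and Cdkn2b at 0.66 (SE 0.238, limma adjusted p = 0.0992), with 7.58% of genes called higher and 6.06% lower. A pseudocount of 0.1 in place of 1 gave 1.79 (SE 0.164, limma adjusted p = 0.000708) and 1.37 (SE 0.420, limma adjusted p = 0.0601), with 18.2% of genes called higher and 0% lower. With each library's trend on GC content and transcript length removed, the changes were 1.58 (SE 0.191, limma adjusted p = 0.0108) and 0.59 (SE 0.348, limma adjusted p = 0.251), with 9.68% of genes called higher and 1.61% lower. Cdkn1a passed in all 3 of these fits and Cdkn2b in none of them. With all 6 libraries kept but weighted by their fit, both genes passed among 22.7% of genes called higher, with 0% called lower. Cdkn1a was then at 1.75 (SE 0.186, limma adjusted p = 0.000175) and Cdkn2b at 0.88 (SE 0.229, limma adjusted p = 0.0242). Both were close to the estimates without aged replicate 1 (1.76 and 0.89) and above the unweighted ones (1.00 and 0.38). The weights come from the same values, so this fit is not support separate from the removal of aged replicate 1. Without aged replicate 2, the log2 change over the remaining libraries was 0.59 (SE 0.633) for Cdkn1a and −0.029 (SE 0.435) for Cdkn2b.

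**Figure D2:**
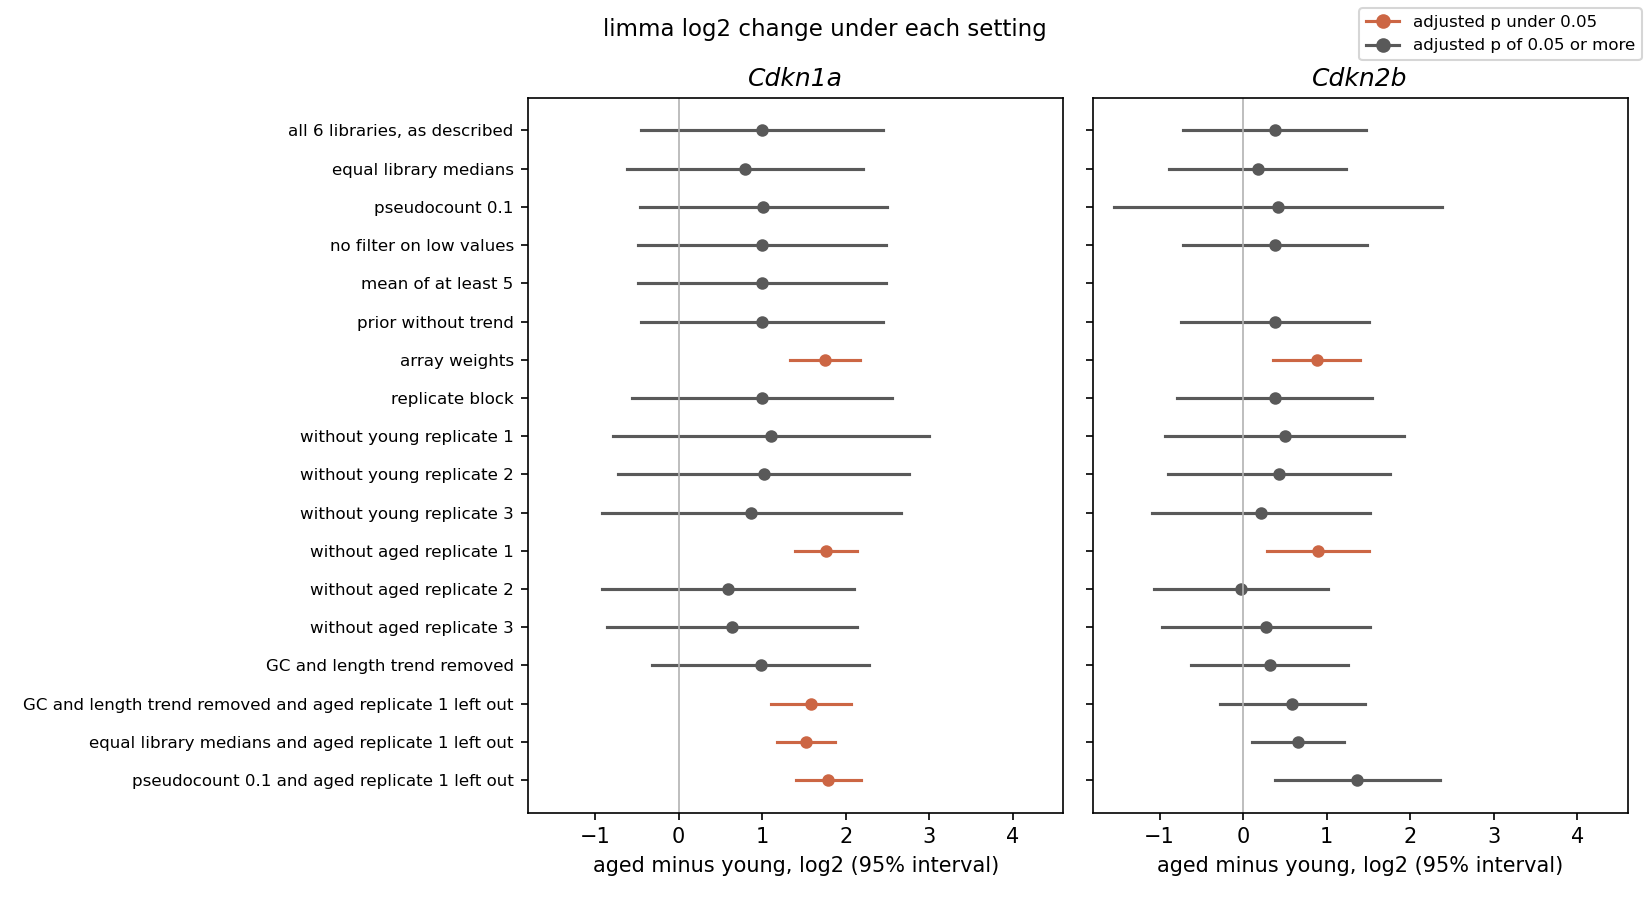
Log2 change of Cdkn1a (left) and Cdkn2b (right), aged minus young, under each way of processing (rows); points are limma estimates, lines their 95% intervals, and orange marks an adjusted p under 0.05. Cdkn1a passes in the 5 settings that leave out aged replicate 1 or weight the libraries, Cdkn2b in 2 of these 5, and neither passes in the others; Cdkn2b was not tested at a mean of at least 5.

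In the authors' deposited table, Cdkn1a has a log2 ratio of aged to young of 1.38 with p and q listed as 0. For Cdkn2b the authors' deposited table gives a log2 ratio of 0.98, a p of 2.3e-06 and a q of 7.37e-06. The sources used here do not name the test behind them. The authors' deposited table lists a q under 0.05 for 54 of the 85 genes that have one (63.5%), so these genes are among a majority there. Log2 of the ratio of the 3-sample mean signals was 1.33 for Cdkn1a and 0.92 for Cdkn2b, computed here from the signal of all 3 samples a group.

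The split of the aged samples was shared with many other genes. In 21 of the 66 genes (31.8%), Cdkn1a and Cdkn2b included, aged replicates 2 and 3 were above and aged replicate 1 below all young samples. The reverse held for 6 (9.09%), and 4 (6.06%) had all 3 aged samples above all young samples. Relative to its young mean on the log2(signal + 1) scale, Cdkn1a was at −0.53 in aged replicate 1 and at 1.76 on average in the remaining aged samples, and Cdkn2b at −0.65 and 0.89. Among the genes with this split, Ccnd3 was the one of the CDK pathway whose aged replicate 1 lay farthest down, at −1.86. The summed signal of the 3 genes of a choroid plexus epithelium list that are in the table (Igfbp2, Trpv4 and Calml4, of 10) was also lowest there, at 222 in aged replicate 1, 926 and 960 in aged replicates 2 and 3, and 414 to 860 in the young samples. Igfbp2 carried most of this sum (170 to 814), and Trpv4 had the split as well. Calml4 did not, since its value of 34.0 in aged replicate 1 lay within the young range of 28.9 to 67.5, with 74.9 and 65.7 in aged replicates 2 and 3. The other 7 markers of that list, Ttr among them, were not analysed here, and the part of such cells in the Cdkn1a and Cdkn2b values was not tested. In such bulk samples, less RNA per cell and fewer cells with the RNA cannot be told apart.

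**Figure D3:**
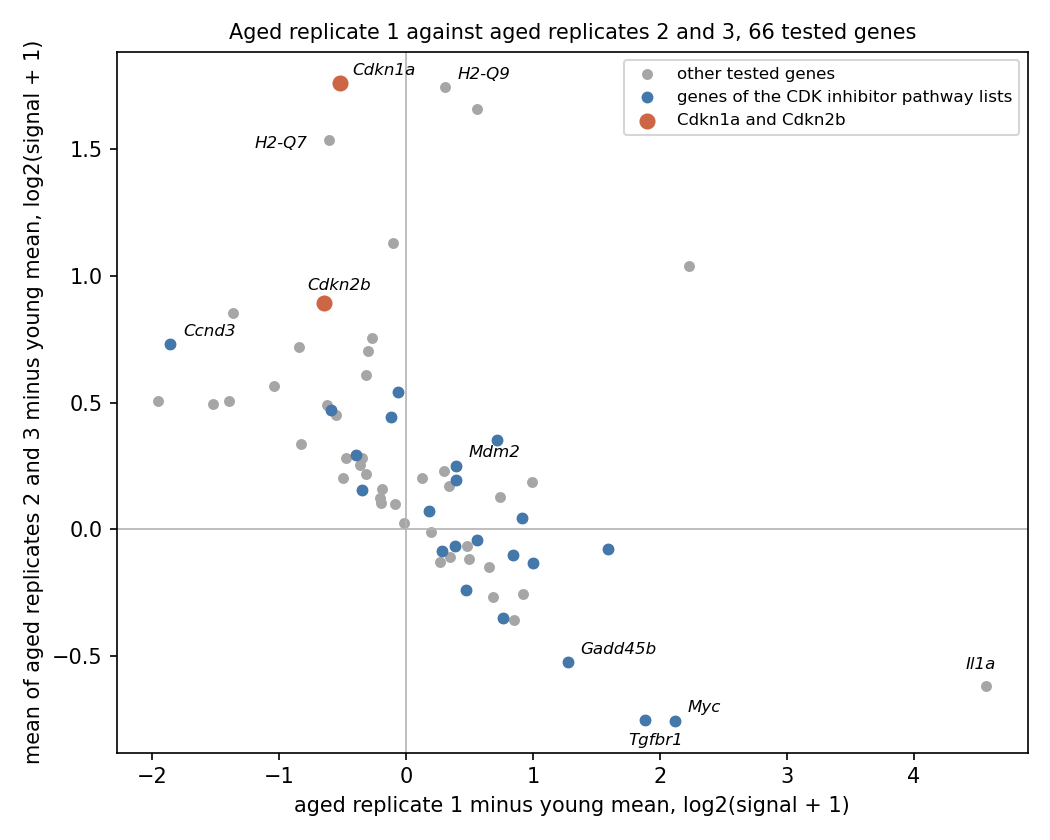
Each point is one of the 66 tested genes, with aged replicate 1 minus the young mean on the x axis and aged replicates 2 and 3 averaged, also relative to the young mean, on the y axis, both in log2(signal + 1). Cdkn1a and Cdkn2b (orange) sit at upper left, below the young mean in aged replicate 1 and above it in the others. No gene lies below the young mean on both axes. As every gene of the table has a higher aged than young mean, that empty area is not a separate finding.

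Likeness of profile to each inhibitor was the root mean square difference over the 6 samples of log2(signal + 1) taken relative to the young mean. For Cdkn1a it was smallest with H2-Q7 (0.301), H2-Q9 (0.351) and H2-Q8 (0.475), where the median over all other genes was 0.975. H2-Q7, an MHC class I gene, was listed at 7.50, 10.9 and 10.2 in the young and at 5.84, 32.8 and 26.1 in the aged samples. H2-Q7 had the split of Cdkn1a, whereas H2-Q9 had all 3 aged samples above the young ones and H2-Q8 had aged replicate 1 within the young range (5.66 against 4.79 to 8.75). The H2-Q genes are near-identical copies, and reads may have been divided among them, which makes each single value uncertain. For Cdkn2b the closest were Traf3ip2 (0.303), an adaptor of interleukin-17 signalling, H2-Q4 (0.305) and H2-K1 (0.313), with a median of 0.599 over all other genes. Genes with an H2 symbol made up 11 of the 66 tested (16.7%), and whether they are over-represented among the closest genes was not tested. Cdkn2b was the 4th closest gene to Cdkn1a, but Cdkn1a was only 25th from Cdkn2b, at the same distance of 0.524. That distance stands against a median of 0.975 for Cdkn1a but of 0.599 for Cdkn2b. The low signal of Cdkn2b compresses its changes on this scale, and what makes the ranks unequal was not tested.

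A ratio of 2 genes within a library does not depend on how the libraries were scaled. Cdkn1a over the D-type cyclin gene Ccnd3 was 0.307, 0.250 and 0.195 across the young replicates and stood higher in each aged replicate, at 0.626, 0.535 and 0.494. The groups did not overlap, and aged replicate 1 was the highest rather than the lowest sample. In that sample Cdkn1a itself was at its lowest (17.96), but Ccnd3 was lower still against its young values (28.7 against 100.0 to 112). The high ratio there thus reflects the low Ccnd3 value and not a high Cdkn1a value. This partner was picked after its values were seen. Of 65 genes taken in turn as the partner, 8 (12.3%) gave a Cdkn1a ratio higher in all aged than in all young samples and 1 (1.54%) a lower one. Cdkn1a over Mdm2, another p53 target, was 1.53, 1.51 and 1.38 in the young and 0.756, 4.19 and 4.32 in the aged samples and overlapped. For Cdkn2b, 0 of 65 partners (0%) separated the groups in either direction. When every tested gene was taken in this way, the median number of partners with a higher ratio in all aged samples was 0. The largest number was 53, and the 8 of Cdkn1a ranked 4th from the top. A count of 0 therefore does not set Cdkn2b apart from the other genes. Cdkn2b over Cdkn1a was 0.0446, 0.0430 and 0.0279 in the young and 0.0161, 0.0384 and 0.0232 in the aged samples, so the share of one inhibitor against the other overlapped between ages.

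Of a list of 7 CDK inhibitor genes, Cdkn1a and Cdkn2b are the 2 in the table, and both passed the filter. For the genes they act on or answer to, limma called 0 members in each list with all 6 libraries, and medians are given beside a median log2 change of 0.12 over all 66 genes, or 0.20 without aged replicate 1. With equal library medians each change is lower by 0.21, more than the median of 3 of these 5 lists.

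The cyclins and kinases had 5 of 14 genes in the table and 2 tested, with a median log2 change of 0.10. Ccnd3, the cyclin whose kinases p15 inhibits, was listed at 100.0, 108 and 112 in the young and at 28.7, 177 and 178 in the aged samples. Its aged samples split as those of Cdkn2b did. The log2 change of Ccnd3 was −0.13 with all libraries, although its mean was higher in the aged samples, and it was called at 0.73 (SE 0.115, limma adjusted p = 0.00525) without aged replicate 1. The S-phase cyclin gene Ccna2 was listed at 1.46, 1.25 and 0.58 in the young and at 2.88, 1.23 and 1.02 in the aged samples. Its highest value was in aged replicate 1. Genes outside these lists were also highest in that library. Examples are Cacna1d (6.74 against 4.15 to 4.93 in the young samples) and Map2k1 (22.7 against 16.3 to 20.2). A highest value there was thus not particular to CDK pathway genes. Ccne1, Ccne2 and Ccnb2 had a mean under 1 and were not tested.

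The pocket protein, E2F and DREAM list, the arm that CDK inhibition keeps repressive, had 7 of 15 genes in the table and 6 tested, with a median log2 change of 0.05. None was called with or without aged replicate 1, where the fit without it called 21.2% of all tested genes higher and 1.52% lower. E2f4, a repressive E2F, and Lin37, a DREAM subunit, were the 2 of 6 that split as the inhibitors did. This count is close to the share of 31.8% over all tested genes. Lin37 was listed at 10.8, 13.6 and 12.1 in the young and at 7.70, 17.7 and 16.7 in the aged samples. E2f2, an activating E2F, stood at 6.55 in aged replicate 1 against 1.05 and 1.75 in the other aged and 1.24 to 1.84 in the young samples. Rb1, the retinoblastoma gene, was also highest in aged replicate 1, at 18.5 against 8.03 to 12.9 in the young samples. Genes outside these lists, such as Cacna1d and Map2k1, were highest there too.

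The list of p53 and damage signalling genes had 9 of 17 in the table and 8 tested, with a median log2 change of 0.23, and 0 of the 8 had the full split of Cdkn1a, which 31.8% of all tested genes had; with so few genes a count of 0 says little. Rad1, a checkpoint clamp gene with the largest log2 change of the list (0.34, SE 0.300, limma adjusted p = 0.994), was listed at 6.73, 7.41 and 4.81 in the young and at 5.91, 11.1 and 8.18 in the aged samples. Rad9a, of the same clamp, was lowest in aged replicate 1, at 11.1 against 13.2 to 15.5 in the young samples, with 17.6 and 14.8 in aged replicates 2 and 3. The kinase genes Atm and Atr and the repair gene Rad50 were highest in aged replicate 1, at 2.92, 4.16 and 4.08, as were genes outside these lists. Among 5 p53 targets other than Cdkn1a in the table, of 6 listed, the median was 0.25 and 0 showed the split, a count that again says little for 5 genes. Mdm2, which encodes the ligase that degrades p53, had all 3 aged samples (23.8, 22.6 and 20.4) above all young samples (20.1, 17.8 and 15.9). Its log2 change was 0.30 (SE 0.215, limma adjusted p = 0.994). Gadd45b, a stress gene, was reversed relative to Cdkn1a, at 17.9, 5.19 and 3.78 in the aged and 6.11 to 7.34 in the young samples. Whether these lists differ from Cdkn1a was not tested.

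Of 12 regulators known for Cdkn2b and Cdkn1a, the TGF-beta receptor gene Tgfbr1 and the transcription factor gene Myc, a known repressor of both, were in the table, with a median log2 change of 0.16. Both had the mirror image of the inhibitors' order. Myc was listed at 4.73, 4.51 and 3.97 in the young and at 22.4, 2.83 and 1.67 in the aged samples. Without aged replicate 1, Myc fell by 0.75 on the log2 scale (SE 0.224, limma adjusted p = 0.0495, the 1 gene called lower), the reverse of its change of 0.20 with all libraries. This call was not stable. With a pseudocount of 0.1 and aged replicate 1 left out, 0 genes were called lower, and with library weights also 0. Tgfbr1 was at 164 in aged replicate 1, 28.6 and 23.04 in the other aged and 34.4 to 60.8 in the young samples, and its change of −0.75 (SE 0.238) without aged replicate 1 had a limma adjusted p of 0.0621. Myc and Tgfbr1 are 2 of the 6 genes of all 66 with this reverse order.

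**Figure D4:**
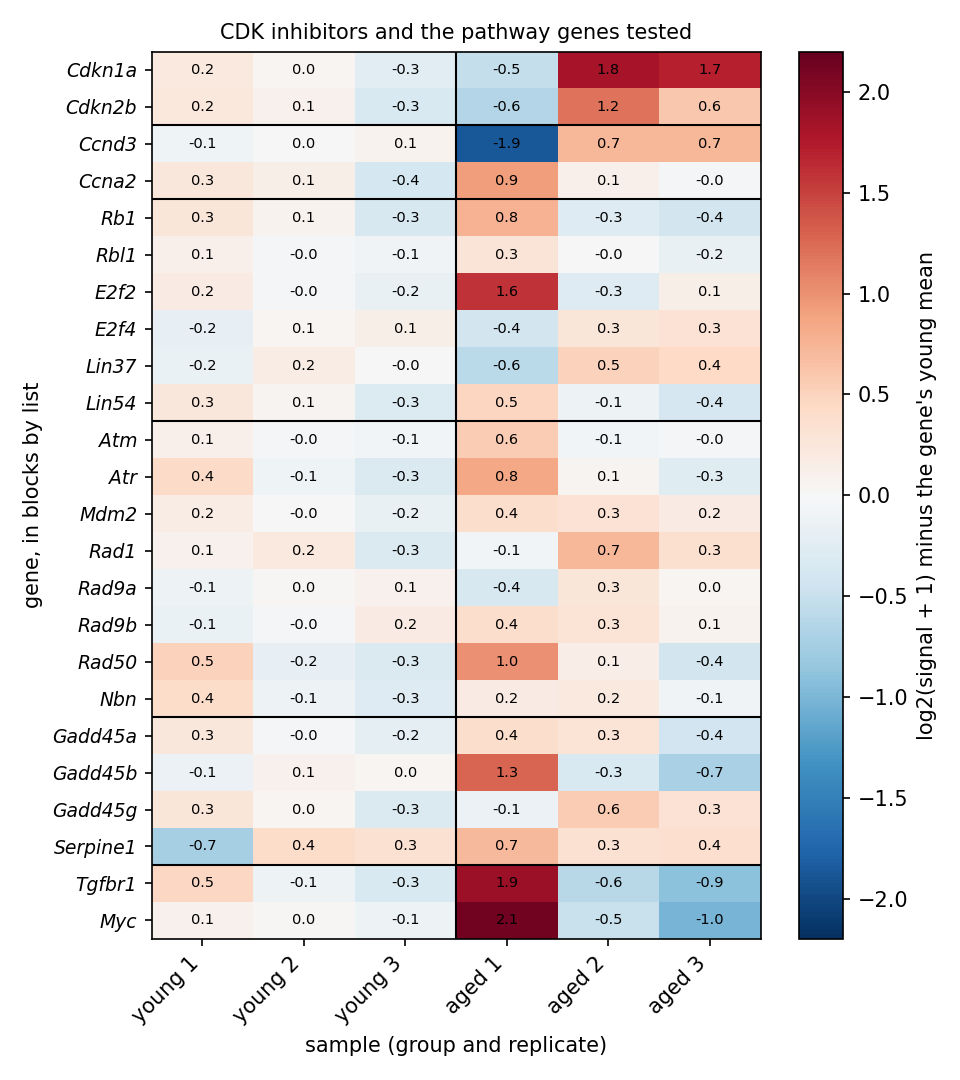
Each cell gives log2(signal + 1) minus the gene's young mean for one sample (columns) and one tested gene (rows, in blocks by list: inhibitors, cyclins, pocket proteins and E2F, p53 and damage signalling, other p53 targets, TGF-beta and Myc). The column of aged replicate 1 is blue for Cdkn1a, Cdkn2b and Ccnd3 and red for Myc, Tgfbr1, E2f2 and Gadd45b, with the colours exchanged or pale in aged replicates 2 and 3.

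The table's KEGG annotation gives Cdkn1a 10 pathway terms and Cdkn2b 4, of which 3 are shared: cellular senescence, cell cycle and FoxO signalling. Each term's count below includes the inhibitors themselves. The split with aged replicates 2 and 3 high and aged replicate 1 low was found in 5 of 16 tested cell cycle genes and 4 of 15 FoxO genes. It was found in 4 of 12 genes of the p53 term, which Cdkn1a alone of the pair carries, and in 2 of 5 of the TGF-beta term, which Cdkn2b alone carries. The share over all tested genes was 31.8%, and that of the TGF-beta term was 40%. The other terms that Cdkn1a alone carries ran from 18.2% (oxytocin signalling, 2 of 11 genes) to 50%. The 50% was reached by HIF-1 signalling (3 of 6), Jak-STAT signalling (2 of 4) and the parathyroid hormone term (1 of 2). With so few genes a term, these shares were not tested.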

How the data were processed

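The deposited table gives the authors' expression signal for 88 cellular senescence genes in 6 samples; its unit, scaling, aligner, counter and build are named in no label or header. The authors' log2 ratio, p-value and q-value stand beside it, per the file headers. The 21 genes of the deposited cell cycle table repeat rows of this one without change. Groups and replicate numbers came from the sample titles. The filter was a mean signal of 1 or more (66 genes, both inhibitors included). As the signal is not counts, limma 3.58.1 (R 4.3.3, eBayes with trend, no covariate) was fitted to log2(signal + 1). This fit was tested on simulated data in which all 6 samples had the spread of the young ones. It was not tested with 1 library apart from the rest, as in these data. Python 3.11.15, numpy 2.4.6, pandas 2.3.3 and matplotlib 3.10.9 did the rest. Promoter windows are RefSeq's for GRCm38.p6. GC content and length are those of the longest GENCODE M21 coding transcript (80 of 88 genes), with the trend fitted without the 2 inhibitors. An unconfirmed GENCODE model, AC167363.2, lies within Cdkn1a on the opposite strand, and no source states whether counting used strand.

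The members, lists and tests were chosen with earlier results of these data known. Named genes were both inhibitors, up to 4 members of each of 6 lists by largest log2 difference, and the 3 genes most like each inhibitor. Rb1, Atm, Atr, Rad9a, Gadd45b, Cacna1d, Map2k1 and the choroid plexus genes were named after their values were seen. The marker lists for microglia, NK and T cells, astrocytes, oligodendrocytes, endothelium and mature neurons had 0 members in the table. Alternatives were equal library medians, another pseudocount or filter, a prior without trend, library weights, the replicate number as a block and each library left out. The GC and length correction, and settings combined with the removal of aged replicate 1, were chosen after seeing the data.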

Additional observations from a re-analysis of the deposited data

How the results depend on the processing

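Depth is unknown, which limits what can be read from Cdkn2b. With all 6 libraries, no change of scaling, pseudocount, filter or prior, and no GC and length correction, brought either gene or any of the tested genes past 5%; at a mean of at least 5 Cdkn2b was not tested. Library weights, whose fit stopped before its tolerance was reached, gave Cdkn1a 1.75 and Cdkn2b 0.88 with 15 genes called. With 1 library left out, Cdkn1a was lowest at 0.59 (aged replicate 2 out) and highest at 1.76 (aged replicate 1 out), Cdkn2b lowest at −0.029 and highest at 0.89 with the same libraries out, and the genes called from 0 to 15, the 15 without aged replicate 1 only. Without aged replicate 1, Cdkn1a was 1.52 with equal medians, 1.79 with a pseudocount of 0.1 and 1.58 with GC and length trends removed, with 9, 12 and 7 genes called. The cause of these differences was not tested.

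With the replicate number as a block, the log2 change stayed at 1.00 for Cdkn1a and 0.38 for Cdkn2b, with 0 genes called. Samples with the same number deviated together at r = 0.271, 0.0908 and 0.408 across genes for numbers 1, 2 and 3, 1 of them under the 0.1 required of every pair, so the samples were not treated as paired. As a hint from the data, 5 of 6 libraries correlated best with their own number, aged replicate 2 being the exception.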
